A study of Mus musculus with 24 samples.

Results

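Cnot1, Cnot3, Cnot6l, Cnot7, Cnot8, Pan2, Pan3, Dcp1a, Dcp2 and Xrn1 encode proteins that shorten the poly(A) tail of messenger RNA, remove its cap and digest what is left. These 10 genes were chosen by name from the 55536 genes of the count table. All 10 were found and all 10 passed the filter on low counts (10 or more counts in 3 or more libraries). They were followed across 2 germ cell fractions, enriched pachytene/diplotene spermatocytes (SP) and round spermatids (RS), and across 3 genotypes. Poly(A) RNA of each fraction was sequenced in bulk. The males were Ago413+/+ (wild-type), Ago413+/- (heterozygous) or Ago413-/- (null). The Ago413 allele is a deletion on chromosome 4 that takes away all of Ago1 and parts of Ago3 and Ago4, neighbouring genes for Argonaute proteins, which load small RNAs. The mice were C57BL/6J males, 10 to 15 weeks old, and each library holds RNA from a pool of 2 to 5 mice. Fractions were kept where at least 70% of the cells were of the wanted type. Nothing says that libraries of a group share no animals or gradient, so p-values measure the spread between these preparations. The line was made in embryonic stem cells of another strain and then backcrossed, and the null libraries held reads of the cut genes, with 329 to 1833 counts for Ago3, against 56 to 233 in wild-type and 231 to 974 in heterozygous libraries, and 183 to 341 for Ago4, against 206 to 966 in wild-type libraries. None of the 10 genes lies on chromosome 4.

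Messenger RNA decay usually starts at the tail. The PAN2-PAN3 complex trims long tails, and the CCR4-NOT complex then removes the rest with a pair of enzymes held on the CNOT1 scaffold. DCP2 with its activator DCP1A cuts off the cap, and XRN1 digests the uncapped RNA from its start. Argonaute proteins guided by microRNAs recruit both deadenylase complexes through GW182 proteins, and germ cells rely on regulated tail shortening because spermatids store messages before they translate them.

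In mm10 coordinates of GENCODE M21, the genes have these places. Cnot1 (ENSMUSG00000036550) is on chromosome 8 at 95719451 to 95807464, minus strand. Cnot3 (ENSMUSG00000035632) lies on chromosome 7 at 3645268 to 3661109, plus strand. Cnot6l (ENSMUSG00000034724) is on chromosome 5 at 96070333 to 96164171, minus strand. Cnot7 (ENSMUSG00000031601) lies on chromosome 8 at 40492540 to 40515847, minus strand. Cnot8 (ENSMUSG00000020515) is on chromosome 11 at 58104153 to 58118594, plus strand. Pan2 (ENSMUSG00000005682) lies on chromosome 10 at 128303335 to 128321358, plus strand. Pan3 (ENSMUSG00000029647) is on chromosome 5 at 147430161 to 147548502, plus strand. Dcp1a (ENSMUSG00000021962) lies on chromosome 14 at 30479535 to 30527063, plus strand. Dcp2 (ENSMUSG00000024472) is on chromosome 18 at 44380502 to 44424969, plus strand. Xrn1 (ENSMUSG00000032410) lies on chromosome 9 at 95954760 to 96057803, plus strand. Exons of Cnot1, Cnot3, Cnot7 and Xrn1 overlap exons of genes on the opposite strand, by 132 (4930513N10Rik), 433 (Leng1), 247 (Zdhhc2) and 184 and 604 bases (Gm16794 and C78334). The kit kept strand, but which strand setting was counted is not given in the sources used here.

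The labels mark 3 of the 24 libraries as outliers that the authors set aside. Of the remaining 21, spermatocytes gave 10 (4 Ago413+/+, 3 Ago413+/- and 3 Ago413-/-) and round spermatids 11 (3 Ago413+/+, 4 Ago413+/- and 4 Ago413-/-), with 12825105 to 29749058 counts each. Ago1 had 0 counts in all 7 null libraries and 32 to 122 counts in the other 14. The summed level of 10 elongating spermatid markers, among them protamine genes, was 9965 ± 3087 CPM (counts relative to the TMM-scaled library total, SD, n = 4) in wild-type spermatocytes and 36319 ± 6443 CPM (SD, n = 3) in wild-type round spermatids. Protamine genes are already transcribed in round spermatids, so this sum does not tell the spermatid stages apart. The sum of 10 pachytene/diplotene markers was 2949 ± 121 CPM (SD, n = 3) there, against 3764 ± 327 CPM (SD, n = 4) in spermatocytes. Macrophage markers summed to 3.10 to 5.05 CPM in wild-type spermatocytes and 10.3 to 14.9 CPM in wild-type round spermatids. In a bulk library, fewer cells of a type and less RNA per cell cannot be told apart. The library labelled heterozygous spermatocytes replicate 3 stood apart in that genes with transcripts over 5000 bases were low relative to genes under 2000 bases (-0.55 on the log2 scale, against -0.30 to 0.24 in the other 20 libraries used). It had the lowest level of its group for all 10 genes, so single genes described below in heterozygous spermatocytes also have a value without it.

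Cnot1, the scaffold of CCR4-NOT, stood highest of the 10 in every group. To compare genes, CPM was divided by the summed exon length in kilobases. On this scale Cnot1 had 36.3 ± 8.34 CPM per kilobase in wild-type spermatocytes (SD, n = 4) and 26.2 ± 2.78 CPM per kilobase in wild-type round spermatids (SD, n = 3). Pan3, which binds the poly(A)-binding protein and holds PAN2, and Cnot7, a catalytic deadenylase subunit, followed. Pan3 was at 9.28 ± 0.974 CPM per kilobase in wild-type spermatocytes and Cnot7 at 11.8 ± 0.991 CPM per kilobase, without overlap between them. With the longest transcript as the length, that order of Cnot7 and Pan3 turned round. In the other 5 groups Pan3 was the higher of this pair, and their libraries overlapped in heterozygous and in null spermatocytes.

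Pan2, the catalytic partner of Pan3, together with Cnot8, Cnot3 and Dcp1a formed the middle of the order, from 4.31 ± 0.679 CPM per kilobase (Pan2) to 1.66 ± 0.319 CPM per kilobase (Dcp1a) in wild-type spermatocytes (SD, n = 4). Neighbours overlapped there from Pan2 down to Xrn1. Dcp2, Xrn1 and Cnot6l, a catalytic deadenylase of the other enzyme family in CCR4-NOT, were lowest in all 6 groups. In wild-type spermatocytes Dcp2 had 0.944 ± 0.572, Xrn1 0.813 ± 0.187 and Cnot6l 0.556 ± 0.0793 CPM per kilobase (SD, n = 4). The depth behind these values was 46 to 316 counts per library for Dcp2 and 64 to 179 for Cnot6l, against 5317 to 16634 for Cnot1. Of the 31-base words in the transcripts, 12.2% for Cnot3, 11.7% for Cnot8 and 5.6% for Cnot1 also occur in other genes. Levels of these 3 are thus less secure than those of the other 7, where the share was at most 1.28%.

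**Figure D1:**
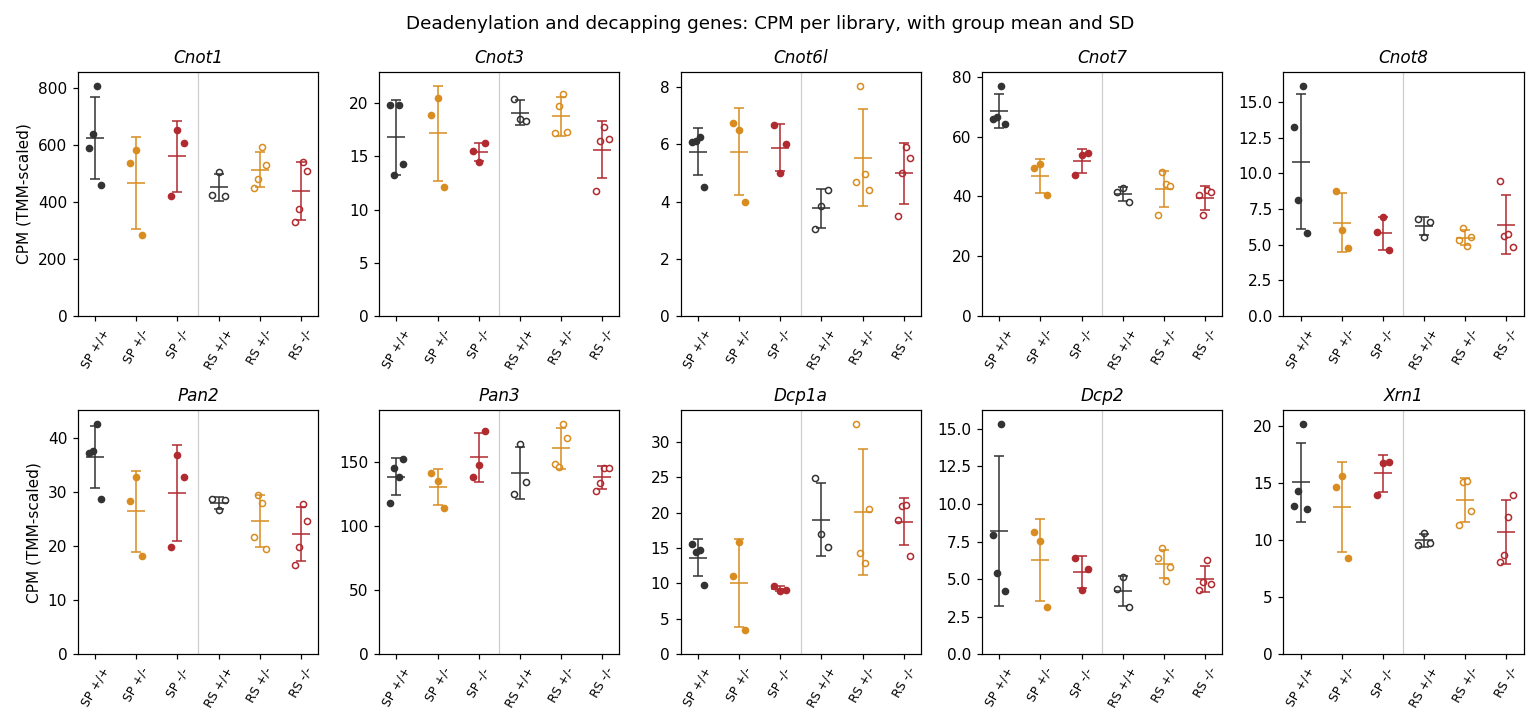
CPM of each gene (vertical axes, starting at 0) in each of the 21 libraries, by fraction (SP filled points, RS open points) and Ago413 genotype, with the group mean and SD. Cnot7 lay at 64.3 CPM or above in the 4 wild-type spermatocyte libraries and at 54.5 CPM or below in every other library, while Dcp1a was the most variable gene, from 3.41 to 32.5 CPM.

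The comparison of round spermatids with spermatocytes asks how the decay machinery differs between cells before and after the meiotic divisions. In the wild type, Cnot7 was the only one of the 10 genes that passed the test. It was at 66, 66.6, 77 and 64.3 CPM in the 4 spermatocyte libraries and at 41.4, 42.8 and 38.2 CPM in the 3 round spermatid libraries. Every round spermatid library lay below every spermatocyte library. Cnot7 fell by 0.75 on the log2 scale, to a level 1.68-fold lower (SE 0.14, edgeR quasi-likelihood test with Benjamini-Hochberg adjustment, adjusted p = 0.000870). One called gene of 10 compares with 24.2% of all 20404 genes tested. Cnot7 kept its call in all 7 fits that left out one library each, with log2 fold changes from -0.78 to -0.68, and its differences were -0.73 among libraries whose names carry a number up to 60 and -0.75 above 60, where each group had a single library, a split by the only running number that the labels give. Its call was lost when the outlier libraries were added back (-0.52, adjusted p = 0.0630), where 0 of 20542 genes were called.

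The other catalytic subunits of CCR4-NOT gave lower values in wild-type round spermatids without passing the test. Cnot8, the close paralog of Cnot7, was at 13.3, 8.11, 16.1 and 5.80 CPM in wild-type spermatocytes and at 6.77, 5.56 and 6.61 CPM in wild-type round spermatids. The spermatocyte libraries spread widely and overlapped with the round spermatids. The log2 fold change was -0.78 (edgeR adjusted p = 0.0595, SE 0.30), and above library number 60, with a single library in each group, the difference was 0.19. Cnot6l ranged from 4.52 to 6.25 CPM in wild-type spermatocytes and from 3.03 to 4.41 CPM in wild-type round spermatids (-0.61, edgeR adjusted p = 0.0827, SE 0.26), without overlap. Over 16 alternatives the Cnot6l value ranged from -0.78 to -0.32. The scaffold Cnot1 (-0.47, edgeR adjusted p = 0.137, SE 0.23) and the subunit Cnot3 (0.18, edgeR adjusted p = 0.516, SE 0.19) overlapped between the fractions. Cnot3 was at 0.087 without spermatocyte replicate 2. In the 16 alternatives Cnot1 ranged from -0.63 to -0.26 and Cnot3 from 0.0089 to 0.27.

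On the decapping side the pair of partner genes pointed in opposite directions. Dcp2, the decapping enzyme, was at 7.90, 5.43, 15.3 and 4.2 CPM in wild-type spermatocytes and at 4.35, 5.15 and 3.17 CPM in wild-type round spermatids. Its activator Dcp1a was at 15.5, 14.5, 14.8 and 9.75 CPM in wild-type spermatocytes and at 24.9, 17 and 15.2 CPM in wild-type round spermatids. Both genes overlapped between the fractions, Dcp2 through spermatocyte replicate 5 and Dcp1a through the lowest round spermatid library. The log2 fold changes were -0.95 for Dcp2 (edgeR adjusted p = 0.0557, SE 0.36) and 0.48 for Dcp1a (edgeR adjusted p = 0.324, SE 0.35). With consecutively numbered libraries of the fractions as pairs, Dcp2 was called (-0.97, edgeR adjusted p = 0.0209). Each value rests in part on 1 library, since Dcp2 was at -0.45 without spermatocyte replicate 4 and Dcp1a at 0.24 without round spermatid replicate 1.

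Xrn1, the exonuclease at the end of the pathway, was at 13.1, 14.4, 20.2 and 12.8 CPM in wild-type spermatocytes and at 9.63, 10.7 and 9.78 CPM in wild-type round spermatids. The groups did not overlap, and the log2 fold change was -0.59 (edgeR adjusted p = 0.0616, SE 0.23). The wild-type round spermatid library set aside as an outlier was at 20.7 CPM of its unscaled total. Its group was at 8.75 to 10.6 CPM on that scale. Pan2 ranged from 28.7 to 42.6 CPM in spermatocytes and from 26.6 to 28.6 CPM in round spermatids, a narrow gap (-0.39, edgeR adjusted p = 0.224, SE 0.23). Pan3 gave 0.03 (SE 0.13, interval of 2 SE from -0.24 to 0.29, edgeR adjusted p = 0.900), and with no scaling beyond the library total it was -0.14.

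In all, 4 of the 10 genes (Cnot6l, Cnot7, Pan2 and Xrn1) were lower without overlap in wild-type round spermatids, where 16.4% of all genes were lower in this way and 33.7% did not overlap in either direction. With edgeR, 5 of the 10 had an unadjusted p-value under 0.05 (37.9% of all genes). DESeq2 called 4 genes lower, Cnot7, Cnot8, Dcp2 and Xrn1, against 13.8% of all genes called lower by that tool and 26.7% called in all. Adjusted p-values of Cnot8, Dcp2 and Xrn1 lay on both sides of the threshold in alternative fits. Without wild-type spermatocyte replicate 5, the library with the lowest level in 8 of the 10 genes, edgeR called 5 lower (Cnot6l, Cnot7, Cnot8, Dcp2 and Xrn1, background 31.6%). Without replicate 4, the library with the highest level in 8 of the 10 genes, Cnot7 alone was called, among 3394 of 20348 genes, and Cnot8 was at -0.52. The median log2 fold change of the 10 genes was -0.53, against 0.02 for all genes tested. With no scaling beyond the library total, the median of all genes in this comparison moved to -0.15, and edgeR called 4 of the 10 lower in a fit that called 27.3% of all genes.

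The same comparison was made within the other genotypes. Of 10 round spermatid markers, 10 had higher values in round spermatids in the wild type, 5 in heterozygous and 6 in null males. Their median log2 fold changes were 0.37, 0.01 and 0.07. All 10 elongating spermatid markers had higher values in each genotype. Sertoli cell markers had higher values for 6, 4 and 8 of 8, with 3 called, all in the null. The part of these marker differences in the values below was not tested. In null males, Dcp1a was at 9.64, 8.96 and 9.12 CPM in the 3 spermatocyte libraries and at 19.0, 21, 21 and 13.9 CPM in the 4 round spermatid libraries. All round spermatid libraries were higher, and the log2 fold change of 1.02 missed the threshold by a small margin (edgeR adjusted p = 0.0511, SE 0.36), while Dcp1a was called with the block on library pairs (0.94, edgeR adjusted p = 0.0145). Xrn1 was at 14, 16.8 and 16.9 CPM in null spermatocytes and at 8.07, 8.69, 12 and 14 CPM in null round spermatids. The groups touched at 14 CPM, so their separation rests on rounding-level differences (-0.57, edgeR adjusted p = 0.0798, SE 0.22).

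Cnot7 in null males was at 47.1, 53.8 and 54.5 CPM in spermatocytes and at 40.5, 33.7, 42.3 and 41.6 CPM in round spermatids, again without overlap (-0.39, edgeR adjusted p = 0.0508, SE 0.14). With library totals only edgeR called it (-0.64, adjusted p = 0.0122), while the median of all genes moved to -0.26, and DESeq2 gave -0.43 (adjusted p = 0.0125), which did not exceed the fold threshold. None of the 10 genes was called by edgeR, where 17.1% of all genes were, and 3 genes had an unadjusted p-value under 0.05 (32.4% of all genes). Groups without overlap were found for 3 of the 10 genes (Cnot7, Dcp1a and Xrn1) and for 29.7% of all. DESeq2 called Dcp1a higher and Xrn1 lower (adjusted p = 0.0339 and 0.0453), against a background of 19.9%. With only the null libraries in the fit, edgeR called Dcp1a (0.98, adjusted p = 0.00424).

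In heterozygous males, Dcp1a was at 11, 15.8 and 3.41 CPM in spermatocytes and at 32.5, 14.3, 12.9 and 20.5 CPM in round spermatids. The groups overlapped (0.99, edgeR adjusted p = 0.0884, SE 0.36), and without spermatocyte replicate 3, the library low in long genes, the log2 fold change was 0.55. It was 0.65 without round spermatid replicate 1. Dcp1a was called without spermatocyte replicate 2 (1.46, edgeR adjusted p = 0.0194) and without the filter on low counts (0.95, edgeR adjusted p = 0.0128). With the block on library pairs Dcp1a was called as well (1.08, edgeR adjusted p = 0.0139). Pan3 was higher in all 4 round spermatid libraries (146.6 to 180.0 CPM) than in the 3 spermatocyte libraries (114.6 to 141.3 CPM), by 0.30 (edgeR adjusted p = 0.170, SE 0.13), the only 1 of the 10 without overlap (18% of all genes). Without spermatocyte replicate 3 the Pan3 value was 0.19. None of the 10 genes was called by edgeR (background 8.89%) or DESeq2 (background 11.2%), and 2 had an unadjusted p-value under 0.05 with edgeR (23.6% of all genes). The median log2 fold changes of the 10 genes were 0.00 in heterozygous and -0.20 in null males, against -0.06 and 0.00 for all genes. The heterozygous median includes spermatocyte replicate 3, the lowest of its group for all 10 genes. In alternatives, 7 of the 10 genes changed sign at least once in heterozygous males, against 1 in wild-type and 3 in null males.

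**Figure D2:**
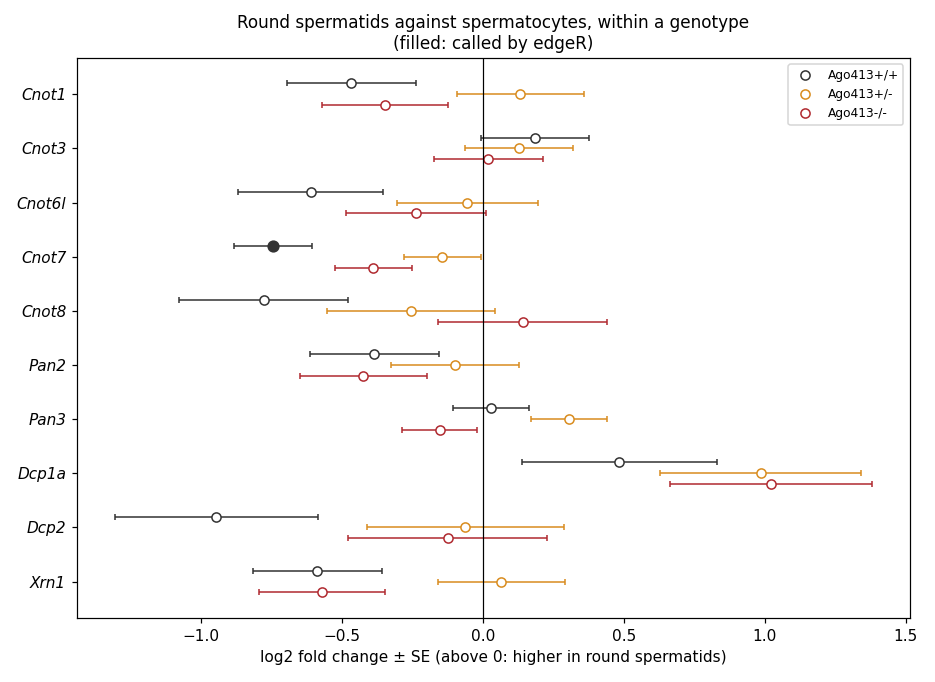
Log2 fold change of round spermatids against spermatocytes (horizontal axis, bars show SE) for each gene in Ago413+/+ (dark grey), Ago413+/- (orange) and Ago413-/- (red) males, with called genes filled. Cnot7 in the wild type (-0.75) is the only filled point, and Dcp1a is the only gene above 0.4 in all 3 genotypes (0.48, 0.99 and 1.02).

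Ratios between partner genes of the same library do not depend on library scaling, so 4 of them were compared as log2 ratios of counts per kilobase. The ratio of Dcp2 to Dcp1a separated the fractions. In wild-type spermatocytes there were 0.482, 0.356, 0.980 and 0.408 Dcp2 counts for each Dcp1a count per kilobase, and in wild-type round spermatids 0.166, 0.288 and 0.199. In null males the ratios were 0.631, 0.454 and 0.592 in spermatocytes and 0.213, 0.218, 0.281 and 0.321 in round spermatids. In these genotypes every round spermatid library lay below every spermatocyte library. In heterozygous males the ratios were 0.700, 0.451 and 0.872 in spermatocytes and 0.187, 0.47, 0.358 and 0.268 in round spermatids, where a single round spermatid library overlapped.

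Averaged over the genotypes, the log2 ratio of Dcp2 to Dcp1a was lower in round spermatids by 1.17 (two-sided exact permutation test within genotypes, p = 4.66e-05, 42875 relabellings, smallest possible p 2.33e-05, adjusted p = 0.000187 over the 4 ratios). The group means were lower in each genotype, going from -0.97 ± 0.65 to -2.24 ± 0.40 in the wild type, from -0.62 ± 0.48 to -1.73 ± 0.57 in the heterozygote and from -0.85 ± 0.25 to -1.97 ± 0.29 in the null (log2 scale, SD). Among libraries numbered up to 60 the differences were -1.34, -1.05 and -1.55 in these genotypes, and above 60 they were -1.03 in the wild type, with a single library in each group, and -0.79 in the null. With the outlier libraries added back the difference was -0.96, and over the 21 tests that left out a library each it ranged from -1.25 to -1.06, all past the threshold. The elongating spermatid markers were several-fold higher in the round spermatid libraries, where this ratio was lower. The part of those markers in the ratio was not tested.

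The ratio of Pan2 to Pan3 was lower in round spermatids by 0.34 on the log2 scale (exact permutation p = 0.0194, adjusted p = 0.0388), a result that did not pass with the outlier libraries added back (-0.25, adjusted p = 0.237) nor in 13 of the 21 tests that left out a library. Among libraries numbered up to 60 its differences were -0.60, -0.25 and -0.05 in the wild type, heterozygote and null, and above 60 they were 0.16 in the wild type, again from single libraries, and -0.27 in the null. It was -1.11 ± 0.34 in wild-type spermatocytes (SD, n = 4) and -1.51 ± 0.26 in wild-type round spermatids (SD, n = 3). Cnot7 to Cnot8 (-0.17, exact permutation p = 0.329, and -0.095 without wild-type spermatocyte replicate 5) and Cnot6l to its paralog Cnot6 (0.04, exact permutation p = 0.745) gave no difference past the threshold between fractions. Cnot6l stood far below Cnot6 in every library, at 0.0536 to 0.111 counts per Cnot6 count per kilobase. Cnot7 stood above Cnot8 in every library, at 1.94 to 5.32.

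**Figure D3:**
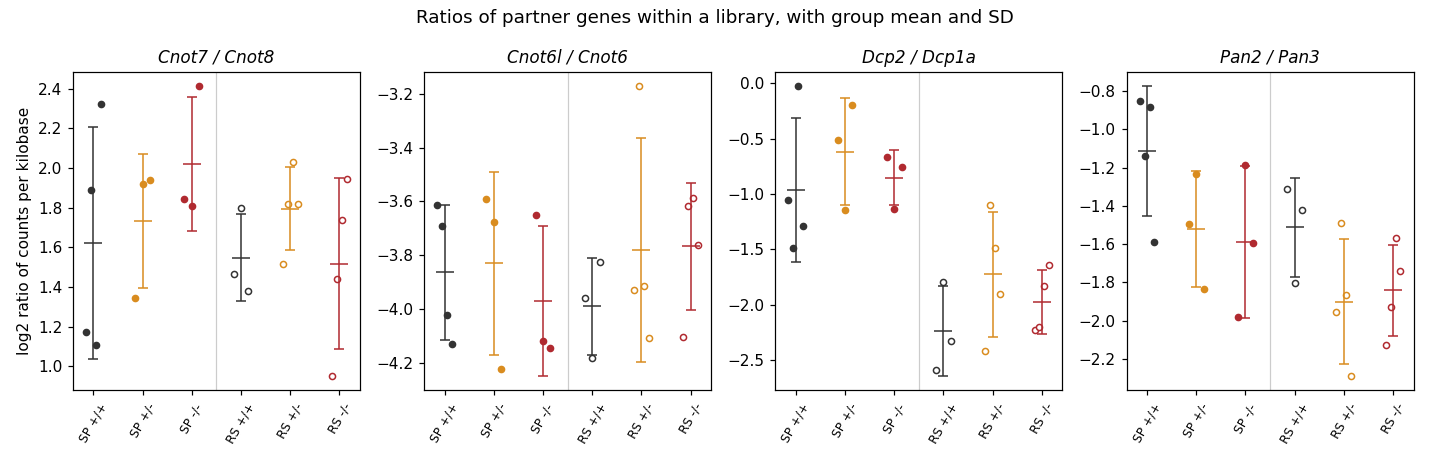
Log2 ratio of counts per kilobase (vertical axes) for 4 pairs of partner genes in each of the 21 libraries, with group mean and SD. The Dcp2 to Dcp1a panel shows the round spermatid groups at means of -2.24, -1.73 and -1.97, below the spermatocyte groups at -0.97, -0.62 and -0.85.

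Dcp1a and Xrn1 were the genes that DESeq2 called in opposite directions between fractions in null males. They were chosen after their values were seen, and the RefSeq promoters of these genes (GRCm38.p6, 250 bases before to 50 after the start, plus strand) are shown so that the sequence beside these levels can be read. Capitals mark the MYB core AACNG on either strand, the core letters bound by MYB factors such as A-MYB, a regulator of pachytene transcription.
Dcp1a chr14:30479315-30479614: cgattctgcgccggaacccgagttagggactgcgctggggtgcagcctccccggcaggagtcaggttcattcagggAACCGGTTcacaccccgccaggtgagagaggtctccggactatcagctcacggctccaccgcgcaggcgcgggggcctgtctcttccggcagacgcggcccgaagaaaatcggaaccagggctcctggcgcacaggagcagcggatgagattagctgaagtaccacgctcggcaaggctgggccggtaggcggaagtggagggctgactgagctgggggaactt
Xrn1 chr9:95954510-95954809: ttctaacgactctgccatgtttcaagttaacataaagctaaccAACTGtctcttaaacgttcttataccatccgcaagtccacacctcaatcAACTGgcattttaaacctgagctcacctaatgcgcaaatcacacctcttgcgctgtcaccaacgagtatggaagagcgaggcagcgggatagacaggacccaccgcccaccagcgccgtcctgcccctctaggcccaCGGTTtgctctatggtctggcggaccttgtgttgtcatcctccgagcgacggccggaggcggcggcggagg
Dcp1a held the core at 174 and 171 bases before the start, where the matches of the opposite strands overlap, and Xrn1 held it at 207, 158 and 21 bases before the start. These letters are common, since 80.3% of 32851 promoters of this length hold them. The table held 12 promoters of 7 of the 10 genes and none for Cnot1, Cnot7 and Dcp2. The short CRE core TGACG, letters bound by CREM-type factors of spermatids, occurred in the windows of Cnot3, Pan2 and a pair of Cnot8 starts that overlap and hold the same match, where 20.8% of all promoters have one. The CCAAT box occurred in the promoters of Cnot3 and Pan2, against 37.4% of all. A match describes letters only, and neither TGACG nor CCAAT was in the windows of Dcp1a and Xrn1.

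The comparison of genotypes asks whether loss of Argonaute genes is accompanied by a change in the decay machinery. In null against wild-type spermatocytes, none of the 10 genes was called by edgeR or DESeq2. The backgrounds were 0.0411% of 19450 genes with edgeR and 15.2% with DESeq2, and 2 of the 10 genes had an unadjusted p-value under 0.05 with edgeR (30.4% of all genes). Those were Cnot7 and Cnot8. The null libraries of Cnot7 (47.1, 53.8 and 54.5 CPM) all lay below the wild-type libraries listed above, and this was the only 1 of the 10 without overlap (27.8% of all genes). The log2 fold change was -0.38 (edgeR adjusted p = 0.120, SE 0.15).

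Cnot8 was at 5.91, 6.93 and 4.62 CPM in null spermatocytes, against 5.80 to 16.1 CPM in the wild type. The overlap came from wild-type replicate 5, the log2 fold change was -0.87 (edgeR adjusted p = 0.117, SE 0.35), and without that replicate edgeR called Cnot8 (-1.07, adjusted p = 0.0282) in a fit that called 23.6% of all genes. Without wild-type replicate 4, the highest library, the Cnot8 value was -0.56 (adjusted p = 0.344). Among libraries numbered up to 60, the difference of Cnot8 was -1.02 with a single null library, and above 60 it was -0.04 with a single wild-type library. For Cnot7 these values were -0.57 and -0.25. Dcp1a (-0.54, SE 0.38) and Dcp2 (-0.55, SE 0.42) had intervals of 2 SE that included 0, and without wild-type replicate 4 the Dcp2 value was -0.01.

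Heterozygous spermatocytes share the wild-type libraries of this comparison. Cnot7 was at 49.4, 50.8 and 40.4 CPM there, again below every wild-type library, with a log2 fold change of -0.50 (edgeR adjusted p = 0.125, SE 0.15). It was the only gene of the 10 without overlap (17.2% of all genes) and the only one with an unadjusted p-value under 0.05 (24.6% of all genes). Without replicate 3, the library low in long genes, the value was -0.41. None of the 10 was called by edgeR (background 0.0257%) or DESeq2 (background 6.16%). With DESeq2 the adjusted p of Cnot7 was 0.0365, but its log2 fold change of -0.50 did not exceed the fold threshold of 0.5.

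Markers of other germ cell stages and of somatic cells also differed in level between these groups. Of 10 pachytene/diplotene markers, 9 had lower values in null than in wild-type spermatocytes, with none called, and their sums were 2607 to 3335 CPM in the null, 2812 to 3401 CPM in the heterozygote and 3451 to 4166 CPM in the wild type. All 10 round spermatid markers had higher values, with sums of 2186 to 2546 CPM in the null, 1864 to 3356 CPM in the heterozygote and 1272 to 2144 CPM in the wild type. Spermatogonia markers without Nanos3 summed to 34.4 to 44.1 CPM in wild-type, 63.2 to 88.0 CPM in heterozygous and 42.6 to 73.2 CPM in null spermatocytes. Of 7 such markers with Nanos3 included, 6 had higher values in the null and 7 in the heterozygote (1 called). All 8 Sertoli cell markers had lower values in the null, with none called. Macrophage markers summed to 3.10 to 5.05 CPM in wild-type, 5.44 to 7.84 CPM in heterozygous and 5.04 to 11.5 CPM in null spermatocytes, and of the 4 of 8 that were tested 4 had higher values in the heterozygote and 3 in the null, with none called. The part of these marker differences in the values of Cnot7 was not tested.

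In round spermatids no gene passed the test between genotypes. Null against wild-type log2 fold changes ran from -0.35 (Pan2, SE 0.20) to 0.39 (Cnot6l, SE 0.27), and the lowest edgeR adjusted p was 0.330. None was called by edgeR (background 0.0518% of 19310 genes) or DESeq2 (background 3.62%), and none had an unadjusted p-value under 0.05 (19.3% of all genes). Cnot3 was at 11.7, 16.4, 17.7 and 16.6 CPM in null and at 20.4, 18.5 and 18.3 CPM in wild-type round spermatids. It was lower without overlap, and groups without overlap were found for 20.8% of all genes. The log2 fold change was -0.31 (SE 0.17), and it was -0.18 without null replicate 1. Pachytene/diplotene markers summed to 2432 to 2544 CPM in null and 2813 to 3044 CPM in wild-type round spermatids, with 8 of 10 lower in the null, and macrophage markers to 17.8 to 25.8 CPM and 10.3 to 14.9 CPM, with 7 of 8 higher. Neither pair of ranges overlapped, none of these markers was called, and their part in the value of Cnot3 was not tested. Without null replicate 1 the Pan2 value was -0.22, and without wild-type replicate 1 the Cnot6l value was 0.26. Cnot7 was nearly level (-0.07, interval of 2 SE from -0.37 to 0.23).

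Heterozygous against wild-type round spermatids gave an unadjusted p-value under 0.05 for Cnot6l (0.58, edgeR adjusted p = 0.562, SE 0.27) and Dcp2 (0.50, edgeR adjusted p = 0.552, SE 0.22), 2 of 10 genes where 8.88% of all genes had one. Without heterozygous replicate 2 the Cnot6l value was 0.32. Xrn1 was at 11.4, 15.1, 15.2 and 12.5 CPM in the heterozygote, above the 9.63 to 10.7 CPM of the wild type, by 0.45 (edgeR adjusted p = 0.572, SE 0.22). It was the only 1 of the 10 without overlap (8.69% of all genes). The wild-type library set aside as an outlier was at 20.7 CPM of its unscaled total for Xrn1. None of the 10 genes was called by edgeR (background 0.0207%) or DESeq2 (background 0.0414%). Null and heterozygous libraries were compared directly as well. In spermatocytes none of the 10 was called or had an unadjusted p-value under 0.05 (backgrounds 0.00514% with edgeR, 0.0206% with DESeq2 and 3.74% unadjusted), with log2 fold changes from -0.23 to 0.27, and all 10 overlapped (8.6% of all genes did not). In round spermatids the same held (backgrounds 0.00518%, 0.104% and 7.67%, and 4.01% without overlap), with log2 fold changes from -0.37 (Xrn1) to 0.18 (Cnot8).

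**Figure D4:**
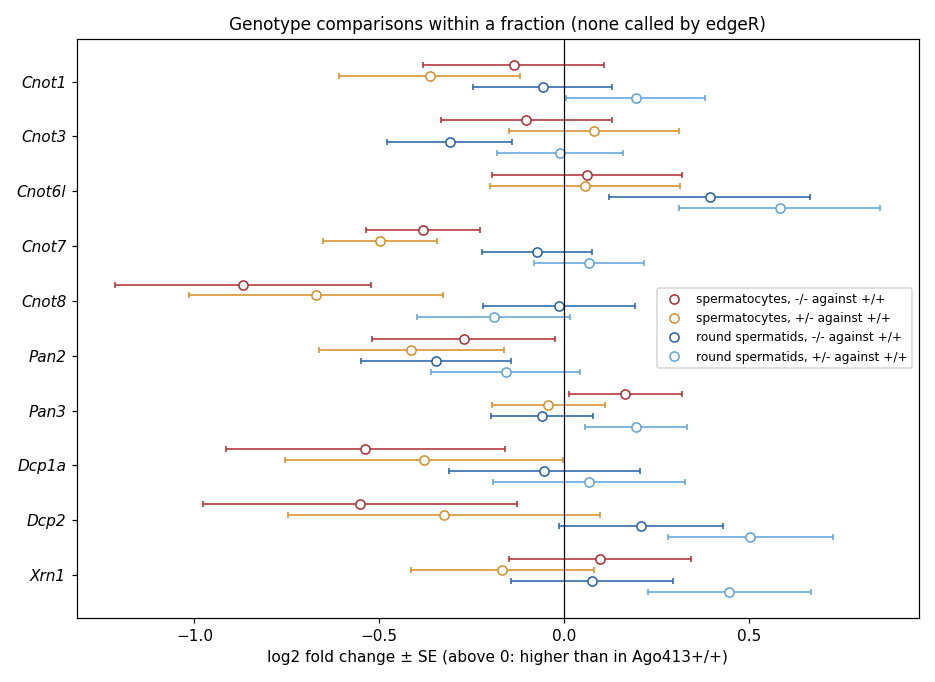
Log2 fold change against Ago413+/+ (horizontal axis, bars show SE) for null and heterozygous spermatocytes and round spermatids, with no gene called by edgeR. Cnot7 lies at -0.38 and -0.50 in spermatocytes and at -0.07 and 0.07 in round spermatids, and Cnot8 has the lowest value, -0.87 in null spermatocytes.

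Whether the genotype acted differently in the fractions was tested with an interaction term. Cnot8 gave a difference of 0.92 between the null effects in round spermatids and spermatocytes (unadjusted p = 0.0411, edgeR adjusted p = 0.807, SE 0.42), and Cnot7 gave 0.60 for the heterozygous effects (unadjusted p = 0.00559, edgeR adjusted p = 0.637, SE 0.20), or 0.52 without heterozygous spermatocyte replicate 3. None of the 10 genes, and 0 of 20404 genes in all, passed with edgeR or DESeq2 (background 0%), while 5.95% of all genes had an unadjusted p-value under 0.05 with edgeR for the null and 7.72% for the heterozygous effect. A different effect in the fractions was thus not shown for any of them. The log2 ratios of the 4 gene pairs did not pass for null against wild-type either. Pan2 to Pan3 was lower in the null by 0.40 (exact permutation p = 0.0343 over 1225 relabellings, adjusted p = 0.137), and Dcp2 to Dcp1a differed by 0.19 (exact permutation p = 0.438), a value that was 0.10 without wild-type round spermatid replicate 1 and 0.34 without wild-type spermatocyte replicate 4.

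The other genes of the pathway were read from 7 lists with 78 genes, of which 76 were tested. Exosc6 and Nanos2 did not pass the filter. Beyond the 3 called genes with the largest change in each direction, the genes named here were chosen after their values were seen. In wild-type round spermatids against spermatocytes, 6 were called higher (12.7% of all genes) and 10 lower (11.4%), and the median of the 76 was -0.19. DESeq2 called 6 higher (12.9%) and 18 lower (13.8%). Of the 6 other CCR4-NOT subunits all had lower values, and Cnot2, a structural subunit, was called (-0.75, edgeR adjusted p = 0.00320, SE 0.17), from 69.5 ± 6.91 CPM (SD, n = 4) to 41.3 ± 4.04 CPM (SD, n = 3). Of 18 decapping partners 15 had lower values and 3 were called lower, Lsm1 (-0.51), Lsm3 (-1.07) and the helicase Ddx6 (-1.07, edgeR adjusted p = 0.0123, SE 0.30). Ddx6 was at 89.7 ± 29.5 CPM in wild-type spermatocytes (SD, n = 4) and 42.7 ± 6.84 CPM in wild-type round spermatids (SD, n = 3).

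Genes called higher were mostly recruiters of the deadenylases. Of 18 RNA-binding recruiters tested, 4 were called higher and 1, Upf1, lower (-0.93). Cpeb3, a gene of the CPEB family, rose by 1.77 (edgeR adjusted p = 0.000514, SE 0.30), from 37.2 ± 12.4 to 127 ± 27.5 CPM. Samd4, a mouse relative of fly Smaug, rose by 1.35 (edgeR adjusted p = 0.000435, SE 0.19), from 203 ± 46.6 to 516 ± 31.8 CPM, and its paralog Samd4b by 0.96. Both were also called in heterozygous males (1.16 and 0.91) and in null males (1.17 and 0.81), as were Cpeb3 (1.85 and 1.78) and the nuclear poly(A)-binding protein gene Pabpn1 (0.65 in the wild type, 0.79 and 0.72). These 4 of the 76 genes were called higher in every genotype, a share near that of all genes tested (5.74%).

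Of 6 BTG/TOB adaptors, which bind Cnot7 and Cnot8 proteins, Btg2 was called higher in the wild type (1.58, SE 0.40), at levels of 0.621 ± 0.224 and 1.88 ± 0.0894 CPM, and Tob1 in the null (0.67, SE 0.16). Pabpc6, a testis poly(A)-binding protein gene, was called lower in the wild type (-1.17, SE 0.25) and in the null (-0.98, SE 0.24). Angel2 of 7 other deadenylases was called lower in the wild type (-0.62), as were Exosc9, Ttc37 and Wdr61 of 16 exosome, SKI and nuclear exonuclease genes (-0.76, -0.93 and -0.56). In all, 4 pathway genes were called higher and 2 lower in heterozygous males (Lsm5 and Exosc9 lower, background 8.89% in both directions), and 5 higher and 2 lower in null males (Cnot2 and Pabpc6 lower, background 17.1%). In null males DESeq2 called 5 higher and 4 lower (background 19.9%). In the genotype comparisons edgeR called 0 of the 76 in each of the 6, where DESeq2 called 4 higher and 11 lower in null spermatocytes (background 15.2%), 4 higher and 4 lower in heterozygous spermatocytes (6.16%) and 2 lower (Noct and Toe1) in null round spermatids (3.62%), each against the wild type.

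**Figure D5:**
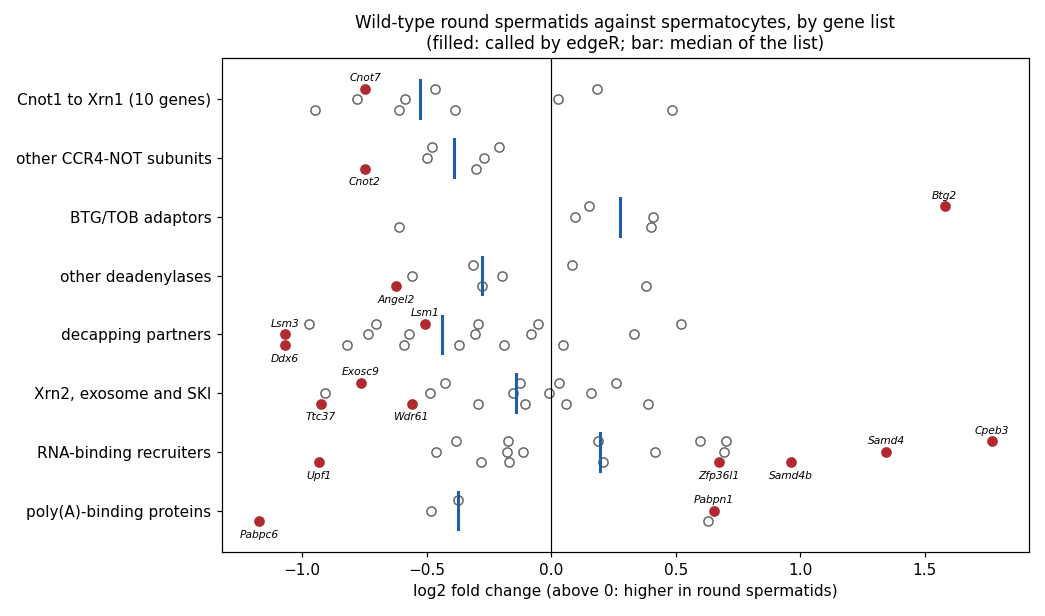
Log2 fold change of wild-type round spermatids against spermatocytes (horizontal axis) for the 10 genes and the 76 tested pathway genes by list, with genes called by edgeR filled and named and the list median as a bar. The 10 genes have a median of -0.53, and the called recruiters Cpeb3 (1.77), Samd4 (1.35) and Samd4b (0.96) lie on the higher side.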

How the data were processed

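Poly(A) RNA of enriched spermatocytes and round spermatids was sequenced as paired reads from directional libraries. The authors deposited whole-number read counts per gene (unnormalized), made with Trim Galore and STAR on mm10 per the labels; the annotation release and strand setting are not given in the sources used here. All 55536 gene identifiers matched GENCODE M21, which gave names, places and exon lengths.

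Genes with 10 or more counts in 3 or more libraries were tested with edgeR 4.0.16 (TMM scaling, quasi-likelihood test, R 4.3.3), with Benjamini-Hochberg adjustment over all genes tested. Calls needed an adjusted p under 0.05 together with a log2 fold change beyond 0.5 either way. Genotypes were compared in a fit per fraction, and fractions and interactions in a joint fit of the 21 libraries. SE is the log2 fold change over the square root of F. Ratios of partner genes (0.5 added to each count) were tested by exact permutation in Python 3.11.15. DESeq2 1.42.0, other scalings, filters and spread estimates, replicate blocks, the outlier libraries and leaving out each library were alternatives. Consecutive library numbers join a spermatocyte with a round spermatid library in 9 pairs, whose deviations from the group means correlated at 0.17 to 0.48 in wild-type, -0.15 to 0.24 in heterozygous and 0.33 to 0.45 in null pairs. Scripts were tested on simulated data. Counts per library ranged from 12825105 to 29749058.

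The rule for naming took all 10 genes in every comparison, some of which are given only within a range, and of the other pathway genes up to 3 called per direction with the largest change. Further called pathway genes and promoters were named after their values were seen. The 10 genes and all lists were chosen with earlier results of these data known.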

Additional observations from a re-analysis of the deposited data

Results flagged for a closer look

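Levels of the 10 genes and the ratios of partner genes in groups of 4 libraries were searched for a library far from the rest, and 2 of 42 groups had one, where chance gives about 1 in 20. Both concern Cnot6l. In wild-type spermatocytes replicate 5 was lowest, at 4.52 CPM, with a gap to the next library of 0.896 of the range. In heterozygous round spermatids replicate 2 was highest, at 8.04 CPM, with a gap of 0.842 of the range. Cnot6l had 64 to 179 counts per library, the lowest upper limit of the 10 genes.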

How the results depend on the processing

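The number of the 10 genes called depended on the setting, and the share of all genes called in the same fit follows in brackets. For null and heterozygous against wild-type spermatocytes it was 0 and ranged from 0 to 1 when a library was left out, with Cnot8 or Cnot7 called without wild-type replicate 5 (background 23.6% and 15.5%). For wild-type round spermatids against spermatocytes it was 1, but 2 with DESeq2 size factors (24.6%), 4 with library totals only (27.3%), 2 without the filter (12.6%), 4 with DESeq2 (26.7%), 0 with the outlier libraries added back (0%), and 1 to 5 when a library was left out (3 without spermatocyte replicate 2, 21.8%, and 5 without replicate 5, 31.6%). For heterozygous males it was 0, but 1 without the filter (5.83%) and 0 to 1 when a library was left out (Dcp1a, 1.46, without spermatocyte replicate 2, 11.5%). For null males it was 0, but 2 with library totals only (Cnot7 and Xrn1, 23.9%), 1 without the filter (10.7%), 2 with DESeq2 (19.9%), 1 with only the null libraries (19.7%), and 0 to 2 when a library was left out (1 without spermatocyte replicate 1, 20.3%, and 2 without round spermatid replicate 4, 18.8%).

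With a replicate block on consecutive library numbers, the counts were 2 in wild-type (Cnot7 and Dcp2, -0.97, 24.2%), 1 in heterozygous (Dcp1a, 1.08, 5.83%) and 1 in null males (Dcp1a, 0.94, 15.8%). The labels tie these libraries by neighbouring numbers only. Deviations from the group means correlated above 0.1 in 8 of the 9 pairs, and 1 heterozygous pair did not (-0.15). A block on the replicate number of the labels changed no call of the 10 genes between genotypes, and same-numbered libraries correlated above 0.1 in 7 of 17 pairs.

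The Pan3 value in the wild type, 0.03, was -0.14 with library totals only and ranged from -0.091 to 0.11 when a library was left out. Cnot6l to Cnot6 ranged from -0.026 to 0.10 between fractions and from -0.022 to 0.11 between genotypes in the same way. Cnot7 to Cnot8 ranged from -0.24 to -0.095 between fractions. Pan2 to Pan3 was -0.25 with the outlier libraries and -0.41 to -0.28 when a library was left out. Dcp2 to Dcp1a kept its direction and side of the threshold under all 23 alternatives, from -1.25 to -0.96. Library totals moved the median of all genes between fractions to -0.15, -0.28 and -0.26 in wild-type, heterozygous and null males, from 0.02, -0.06 and 0.00. Levels per kilobase moved with the length used, in wild-type spermatocytes from 36.3 to 74.3 for Cnot1 and from 9.28 to 25 for Pan3 with the longest transcript. Where no cause is named, the cause was not tested.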

Other observations

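The 3 libraries that the labels call outliers entered the comparisons above only where they are said to be added back, and their levels are given as CPM of the unscaled library total. In wild-type round spermatids replicate 3, 7 of the 10 genes lay above the range of the other libraries of its group, 2 below and 1 within it. Cnot7 was at 62.2, against 35.9 to 42.4 in the others, and Dcp1a at 8.07, against 14.2 to 22.6. Xrn1 was at 20.7, against 8.75 to 10.6. In heterozygous spermatocytes replicate 4, 1 gene lay above, 3 below and 6 within the range. In wild-type spermatocytes replicate 3, 2 lay above, 4 below and 4 within, with Cnot7 at 51.7 against 68.9 to 82.4.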
